A study of Mus musculus with 6 samples.

Results

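The interferon response genes examined here are a list of 43 transcripts that interferons induce in most cell types. A gene counted as measured where the array annotation gave it a probe set under its symbol alone, and the brightest such probe set on average stood for the gene. On that rule 38 of the 43 genes were measured, among 19938 genes in all. Isg15, Gbp2, Igtp and Ifi47 were annotated only on probe sets shared with another symbol, and Ifi44 had no listed probe set, so these 5 have no value here. RNA came from CD4 single-positive thymocytes of C57BL/6 mice, in 3 wildtype samples (Ly5.1+) and 3 Bach2 knockout samples (Ly5.1-), each hybridised to its own array. Bach2 is a leucine zipper protein that represses transcription. Both genotypes grew in lethally irradiated male Rag1 knockout hosts, which cannot make T or B cells themselves. The hosts were 8 weeks old when they received a balanced mixture of lineage-depleted marrow from male donors of either genotype, also 8 weeks old. Thymocytes were sorted 2 months after the transfer, and the design text states that the 6 samples came from separate mice. Hosts, age and sex were therefore common to both groups, and the Ly5.1 allele went together with genotype.

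Type I interferons signal through the receptor chains Ifnar1 and Ifnar2 and the kinases Jak1 and Tyk2. A complex that holds Stat2 and Irf9 then binds the interferon-stimulated response element (ISRE) in target promoters. Interferon gamma uses Ifngr1 and Ifngr2 and acts through a different element, the gamma-activated site (GAS). In the thymic medulla a low, steady production of interferon keeps such genes expressed in maturing single-positive thymocytes without infection. The comparison asked whether that expression differs with the Bach2 genotype of the thymocytes.

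None of the 38 measured genes passed the test between genotypes, with 0 higher and 0 lower at an adjusted p under 0.05 (limma, two-sided, Benjamini-Hochberg over all genes). The same test called 0.567% of all genes, 0.351% higher and 0.216% lower. At an unadjusted p under 0.05 there were 6 of the 38 genes, or 15.8% against 6.91% of all genes. None of the 38 was dim (mean at most 4.94), and without dim genes the count was again 6 and the share of the genes kept 9.3%. Of the 6, 3 were higher and 3 lower, against 3.04% of all genes higher and 3.87% lower. The largest difference was 1.3-fold (Oas3). Knockout minus wildtype differences ran from -0.35 to 0.38 on the log2 scale, with a median of -0.09 against -0.01 over all genes. Of the 38 genes, 30 lay below 0 in the knockout (78.9%, against 53.8% of all genes) and 8 above. That count of 30 ran from 25 without wildtype replicate 2 to 32 without knockout replicate 3. The 95% interval of the difference stayed within 1 log2 unit of 0, a doubling or halving, for all 38 genes, and its outermost bounds were -0.72 (Oas1a) and 0.83 (Gbp3). For 26 of the 38 it stayed within 0.5. The count at an unadjusted p under 0.05 rested on single arrays. It was 11 without wildtype replicate 1, where the share of all genes was 6.93%. It was 3 without wildtype replicate 2 (share of all genes 11.8%) or knockout replicate 2 (4.88%). Without wildtype replicate 3, knockout replicate 1 and knockout replicate 3 it was 4, 6 and 7, against 6.59%, 6.05% and 5.42% of all genes.

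**Figure D1:**
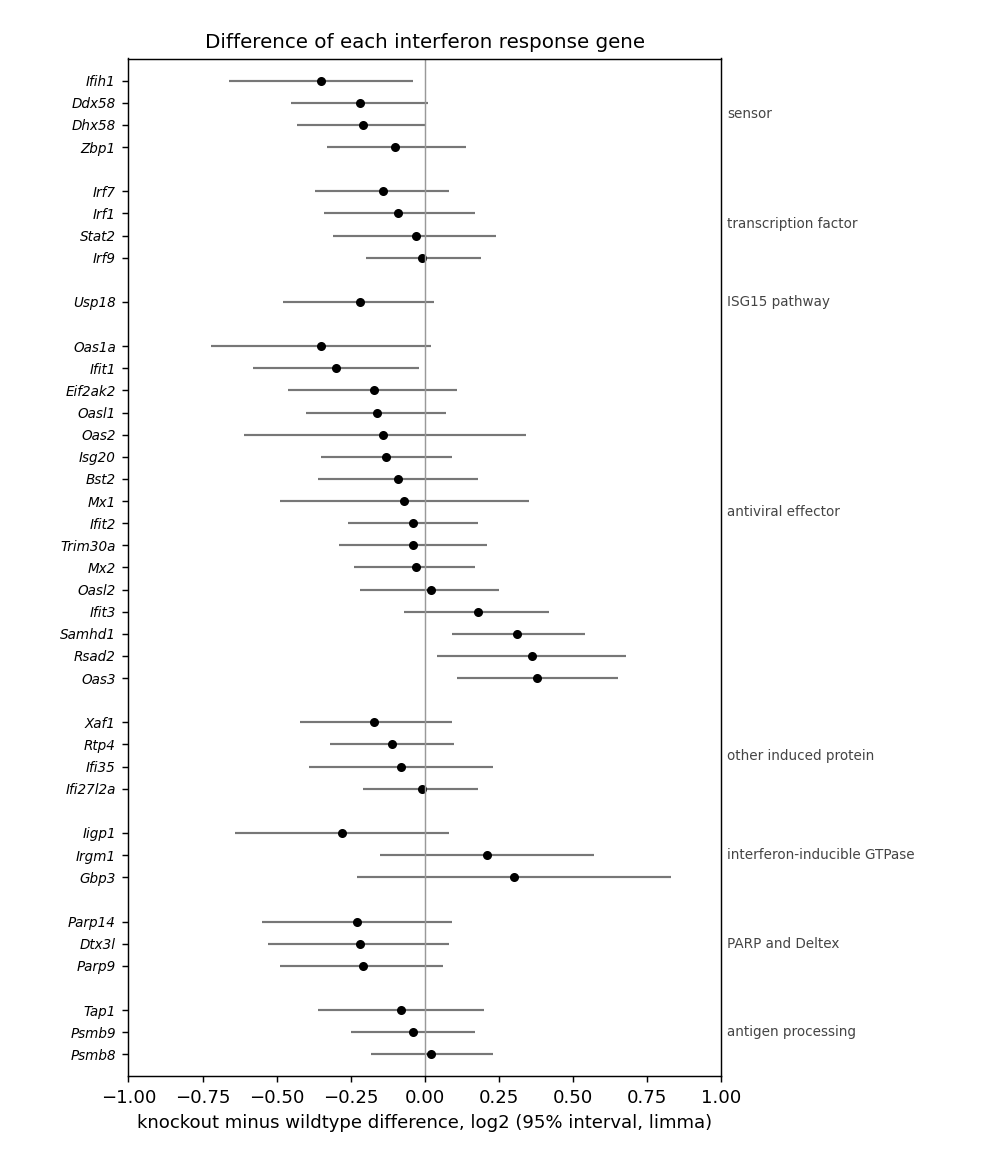
Knockout minus wildtype difference in log2 units (horizontal axis) for the 38 measured interferon response genes, grouped by role; points are differences of group means over 3 arrays each and bars the 95% interval from limma. Differences run from -0.35 to 0.38, 30 lie left of 0, and the 4 at the right end are Oas3, Rsad2, Samhd1 and Gbp3.

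The cytosolic sensors come first in the pathway, since they detect viral nucleic acid and start interferon production. All 4 measured sensors lay below 0, with a median difference of -0.22. Ifih1, the sensor of long double-stranded RNA also called MDA5, was at 7.62, 7.85 and 7.57 in wildtype replicates 1 to 3 and at 7.15, 7.21 and 7.63 in the knockout arrays. Knockout replicate 3 lay among the wildtype values, so the groups overlapped, and the difference of -0.35 ± 0.14 (± the standard error from limma here and below) had an adjusted p of 0.636. Dhx58, a regulator of the other RNA sensors also called LGP2, was at 7.15, 7.29 and 7.28 in wildtype and at 7.12, 6.95 and 7.01 in knockout cells. Every knockout value was below every wildtype value, yet the nearest of them were only 7.12 and 7.15 (difference -0.21 ± 0.10, adjusted p = 0.723).

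Ddx58 encodes RIG-I, which recognises RNA with a free triphosphate end. It was at 8.73, 9.01 and 8.90 in wildtype and at 8.59, 8.71 and 8.70 in knockout cells, again without overlap (difference -0.22 ± 0.10, adjusted p = 0.769). Ddx58 lies 32 tested genes away from Bach2 in gene order, so for Ddx58 a linked donor allele and the loss of Bach2 cannot be told apart. Zbp1, the sensor of left-handed nucleic acid, differed by -0.10 with overlapping groups. Non-overlap by itself was common on these arrays. It held for 4 of the 38 genes, 10.5%, against 11.7% of all genes. Of the 4, 2 were higher and 2 lower, against 5.13% and 6.57% of all genes.

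The transcription factors of the response were nearly level between the genotypes. All 4 lay below 0, between -0.14 and -0.01. Irf7, which amplifies type I interferon production and is itself induced, was at 9.42, 9.60 and 9.44 in wildtype and at 9.28, 9.28 and 9.46 in knockout cells, the largest difference of the group at -0.14 ± 0.10 (adjusted p = 0.925). Stat2 was at 8.00, 8.39 and 8.32 against 8.10, 8.18 and 8.34. It varied by 0.40 over the 6 arrays, and its genotype difference was -0.03 ± 0.12. Irf9, the DNA-binding partner of Stat2, kept within 0.10 over all 6 arrays. Irf1, a factor that interferon gamma induces strongly, differed by -0.09. Usp18, the protease that removes Isg15 from proteins and damps signalling at Ifnar2, was at 8.26, 8.46 and 8.33 in wildtype and at 7.97, 8.09 and 8.31 in knockout cells (difference -0.22 ± 0.11, adjusted p = 0.794). Knockout replicates 1 and 2 lay below all wildtype values of Usp18, and knockout replicate 3 did not.

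Differences of the antiviral effectors ran from -0.35 to 0.38. Of 16 measured, 11 lay below 0 and 5 above, with a median of -0.06, and the estimates for close relatives in a gene cluster lay on either side of 0, with 0 past the test. Oas3 and Oas1a belong to the oligoadenylate synthetases, which make the messenger that activates the RNA-degrading enzyme RNase L. Oas3 was at 7.10, 7.44 and 7.54 in wildtype and at 7.68, 7.75 and 7.78 in knockout cells. Its 3 knockout values were tight and all above the wildtype values, the lowest of which was wildtype replicate 1 (difference 0.38 ± 0.12, adjusted p = 0.426). Oas1a was at 6.76, 7.16 and 6.93 in wildtype and at 6.25, 6.64 and 6.91 in knockout cells. The groups overlapped through knockout replicate 3 (difference -0.35 ± 0.17, adjusted p = 0.770). Oas2 of the same cluster spanned 0.89 over the 6 arrays, from 7.02 in wildtype replicate 1 to 7.92 in wildtype replicate 2, and differed by -0.14 between genotypes.

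The Ifit genes, whose proteins bind viral RNA and stop its translation, also had estimates on either side of 0. Ifit1 was at 9.03, 9.34 and 9.02 in wildtype and at 8.73, 8.73 and 9.04 in knockout cells. Knockout replicates 1 and 2 lay below all wildtype values and knockout replicate 3 did not (difference -0.30 ± 0.13, adjusted p = 0.662). Ifit3, which the naming rule did not select, was at 9.65, 9.76 and 9.65 in wildtype and at 9.68, 9.89 and 10.02 in knockout cells, with a difference of 0.18 ± 0.11 (adjusted p = 0.887). Ifit2 differed by -0.04. Whether the neighbours differ from each other in their response to genotype was not tested.

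Samhd1, which removes the nucleotides that reverse transcription needs, was at 10.66, 10.94 and 10.86 in wildtype and at 11.10, 11.12 and 11.18 in knockout cells. All 3 knockout values were above all wildtype values (difference 0.31 ± 0.10, adjusted p = 0.436). Rsad2 encodes viperin, an enzyme that makes a chain-terminating nucleotide. It was at 6.73, 6.92 and 6.78 in wildtype and at 7.27, 6.83 and 7.40 in knockout cells, where knockout replicate 2 fell among the wildtype values (difference 0.36 ± 0.14, adjusted p = 0.625). Samhd1 and Dhx58 were the 2 genes of 38 whose genotype difference exceeded the wider of their within-genotype ranges. The share of all genes that did so was not computed, so this count does not set the 2 apart. In every fit that left out an array Oas3 stayed between 0.25 and 0.47, Rsad2 between 0.24 and 0.53 and Samhd1 between 0.23 and 0.37, and no adjusted p of the 38 genes came under the threshold.

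**Figure D2:**
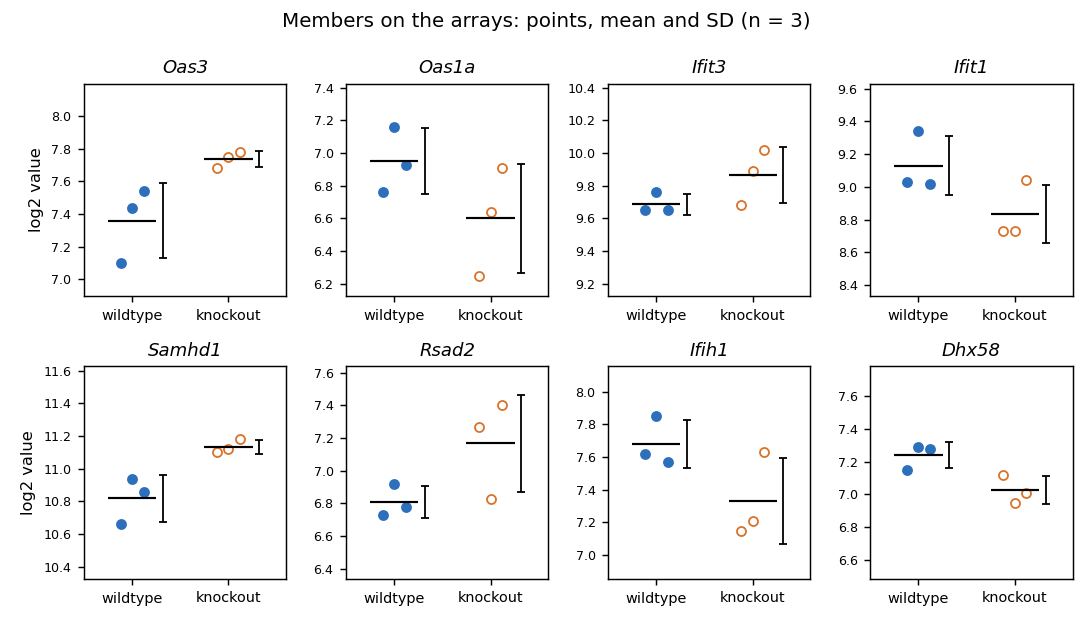
Log2 values of 8 interferon response genes in wildtype (filled) and knockout (open) arrays, with each group's mean (line) and SD (bar, n = 3); every panel spans the same height. Oas3 and Samhd1 lie higher and Dhx58 lower in the knockout without overlap, while Oas1a, Ifit1, Ifit3, Rsad2 and Ifih1 overlap.

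Promoters were examined because these neighbours share their inducer and lay on opposite sides of 0. RefSeq promoters of GRCm38.p6, from 250 bases before to 50 after the start of a gene, were listed for 27 of the 38 genes. All 8 genes above 0 had one, but only 19 of the 30 below 0, so the 11 without one all lay below 0. The listed promoters were searched on both strands for the ISRE core (GAAA, any 2 bases, GAAA) and the GAS TTCNNNGAA. The AP-1 element, TGAGTCA or TGACTCA, was searched in the looser form TGANTCA, which is called a TRE here. The related Maf recognition element (MARE), which Bach2 recognises, was searched as TGC directly before a TRE. Stretches before the start are given for 6 genes, 5′ to 3′ on the strand of the gene. They set Ifit1 beside Ifit3 and Oas1a beside Oas3 and show the other promoters of genes above 0 with a TRE. No gene below 0 with a TRE is among the 6. Capitals with GAAA or, on the other strand, TTTC at either end mark ISRE cores, which may overlap, and capitals that hold TGANTCA mark a TRE, in Irgm1 as part of a MARE.
Ifit1, chr19:34640765-34640833, plus strand: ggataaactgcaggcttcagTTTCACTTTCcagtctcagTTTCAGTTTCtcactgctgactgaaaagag
Ifit3, chr19:34583353-34583499, plus strand: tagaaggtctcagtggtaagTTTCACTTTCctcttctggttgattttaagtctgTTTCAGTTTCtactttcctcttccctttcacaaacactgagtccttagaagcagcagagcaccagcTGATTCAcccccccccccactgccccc
Oas1a, chr5:120907526-120907565, minus strand: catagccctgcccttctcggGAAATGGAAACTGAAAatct
Oas3, chr5:120777687-120777788, minus strand: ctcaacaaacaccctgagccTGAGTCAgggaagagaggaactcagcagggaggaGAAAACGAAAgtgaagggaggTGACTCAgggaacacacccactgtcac
Rsad2, chr12:26456513-26456592, minus strand: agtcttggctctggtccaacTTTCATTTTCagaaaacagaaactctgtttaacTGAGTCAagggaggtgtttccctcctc
Irgm1, chr11:48871421-48871555, minus strand: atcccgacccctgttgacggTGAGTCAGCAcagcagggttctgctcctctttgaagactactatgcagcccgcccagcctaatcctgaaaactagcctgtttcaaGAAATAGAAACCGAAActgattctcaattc

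An ISRE core was in the listed promoters of 13 of the 27 genes, 48.1%, against 3.99% of all 27025 genes in the table. It was found in genes on either side of 0, in 5 of the 8 genes above 0 and in 8 of the 19 below, with median differences of -0.04 with it and -0.08 without. A GAS was in 9 of the 27, 33.3%, against 9.55% of all genes. A TRE was in 7 of the 27, 25.9%, against 8.97% of all genes. Of the 8 genes above 0, 4 held a TRE (Ifit3, Oas3, Rsad2 and Irgm1), and of the 19 below 0, 3 did (Trim30a, Ifi35 and Xaf1), which gave a median difference of 0.18 with it and -0.09 without. The matches of Ifit3 (TGATTCA) and Trim30a (TGAATCA) met only the looser form and are not the AP-1 element. Ifi35 (TGACTCA) and Xaf1 (TGAGTCA), both below 0 and not printed above, held the AP-1 element itself. The Irgm1 promoter also held the MARE, which is in the promoters of 0.492% of all genes. The genes were known to lie above or below 0 when the motifs were chosen, so these counts are a description, as is any match, which is not evidence that a factor binds.

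The same TRE search, in the looser form, over all tested genes with a listed promoter gave 1262 genes with the element and 14352 without. With it 10 genes were called higher and 0 lower in the knockout (limma, adjusted p under 0.05), 0.792% and 0.0%. At an unadjusted p under 0.05 there were 53 higher and 55 lower. Without it 40 were called higher and 31 lower, 0.279% and 0.216%. The median difference of all genes with the element was -0.02, and that of the 7 interferon response genes with it, of which 0 passed the test, was 0.18. Of 65 tested genes with a MARE 2 (3.08%) were called higher and 0 lower (7 and 0 unadjusted), with a median of 0.03. Of 1403 with a GAS 4 were called higher and 5 lower, 0.285% and 0.356%. Of 607 with an ISRE core 2 were called higher and 2 lower, 0.329% each. Over all genes tested the shares were 0.351% and 0.216%.

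The interferon-inducible GTPases attack the vacuoles of intracellular parasites and are induced most strongly by interferon gamma. Only 3 of 6 were measured. Gbp3, a guanylate-binding protein, varied most among the 38 genes, at 5.88, 6.56 and 6.56 in wildtype and at 6.10, 6.83 and 6.97 in knockout cells. In both genotypes replicate 1 lay far below the other replicates, and the difference of 0.30 ± 0.24 had an adjusted p of 0.947. It ran from 0.07 without wildtype replicate 1 to 0.56 without knockout replicate 1. Irgm1, a regulator of the other GTPases that was chosen for the MARE, was at 9.06, 9.53 and 9.32 in wildtype and at 9.18, 9.67 and 9.70 in knockout cells (0.21 ± 0.16, adjusted p = 0.937). Iigp1 differed by -0.28 with overlapping groups. Gbp3 and Irgm1 thus overlapped as widely as Iigp1 did. Probe sets of such close relatives may bind transcripts of more than their own gene.

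Parp9, Parp14 and Dtx3l encode enzymes of ADP-ribosylation and ubiquitination that act together in interferon signalling. They differed by -0.21, -0.23 and -0.22. Parp14 was at 8.55, 8.90 and 8.84 in wildtype and at 8.25, 8.63 and 8.73 in knockout cells, where the groups overlapped (-0.23 ± 0.14, adjusted p = 0.889). Of the antigen processing genes, the immunoproteasome subunits Psmb8 and Psmb9 differed by 0.02 and -0.04, with 95% intervals from -0.18 to 0.23 and from -0.25 to 0.17. Tap1, a chain of the peptide transporter of MHC class I, was at 9.49, 9.85 and 9.90 in wildtype and at 9.55, 9.71 and 9.74 in knockout cells (-0.08 ± 0.12, adjusted p = 0.990). Wildtype replicate 1 was the lowest of all 6 values of Tap1.

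Among the remaining induced proteins, Xaf1, a partner of an apoptosis inhibitor, was at 8.62, 8.93 and 8.73 in wildtype and at 8.47, 8.57 and 8.75 in knockout cells (-0.17 ± 0.12, adjusted p = 0.925). Ifi35 was at 7.84, 8.30 and 8.32 against 7.97, 8.22 and 8.04 (-0.08 ± 0.14, adjusted p = 0.992). Both overlapped between the genotypes. Ifi27l2a stayed between 11.67 and 11.77 on all 6 arrays, and its interval ran from -0.21 to 0.18. The 22 genes that the naming rule did not select differed by -0.28 to 0.21, with adjusted p from 0.861 to 0.998. Those of them given with values were chosen after their values were seen, to complete a role.

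Arrays of the same genotype differed in a shared direction over many of the 38 genes. Averaged over the genes, wildtype replicates 1 to 3 stood at 8.46, 8.74 and 8.65, and the knockout replicates in turn at 8.43, 8.54 and 8.68, so the groups overlapped. Wildtype replicate 1 was the lowest wildtype array in 32 of the 38 genes, 84.2%, against 29.7% of all genes, and the highest in 0. Knockout replicate 3 was the highest knockout array in 29 of 38, 76.3%, against 30.1% of all genes, and the lowest in 0. Knockout replicate 1 was the lowest in 28, 73.7%, against 31.4% of all genes. Among all genes with a mean above the median of all values these shares were 38.3%, 32.3% and 35.9% in turn. After a second quantile normalization the counts of 32, 29 and 28 were 29, 27 and 26, and wildtype replicate 1 was the highest wildtype array in 3 genes. Wildtype replicate 2 was the highest wildtype array in 29 of 38, but that count was 14 after the second quantile normalization, and the array was the highest in 52.8% of all genes with a mean above the median of all values. The median range within wildtype was 0.28 and within knockout 0.24. The median size of the genotype difference was 0.15, against 0.08 over all genes. A range over 3 arrays and a difference of group means are unlike measures, so their sizes cannot be ranked.

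**Figure D3:**
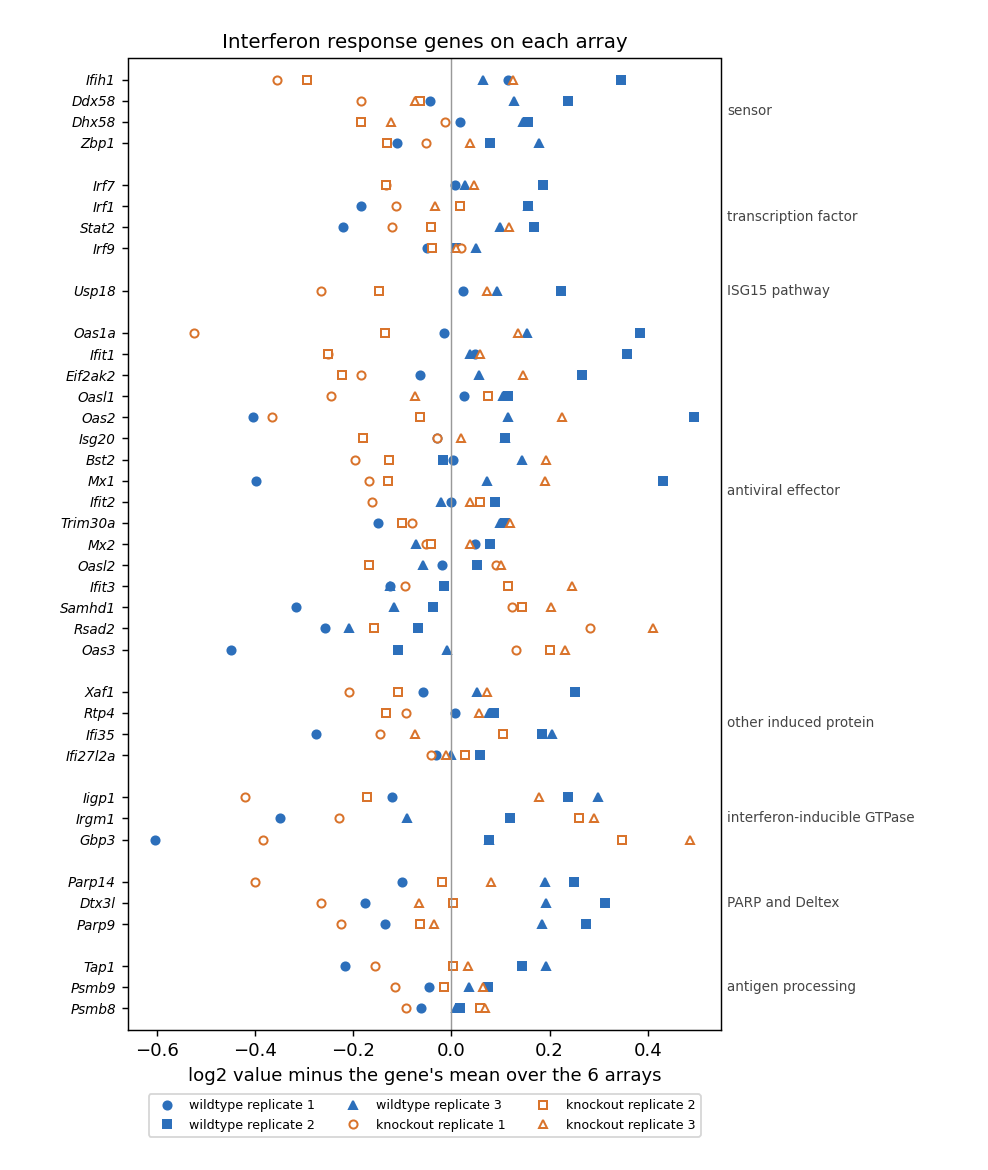
Log2 value of each interferon response gene minus its mean over the 6 arrays (horizontal axis), grouped by role, with wildtype arrays filled and knockout arrays open and the replicate number given by the marker. Wildtype replicate 1 is the lowest wildtype point in 32 of 38 genes and knockout replicate 3 the highest knockout point in 29.

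Genes of the class that interferon gamma induces strongly were low in replicate 1 of both genotypes. All 7 measured members of the class (Irf1, Gbp3, Irgm1, Iigp1, Psmb8, Psmb9 and Tap1) were lowest in wildtype replicate 1 and in knockout replicate 1 among the arrays of their genotype, before and after the second quantile normalization. Knockout replicate 3 was the highest knockout array in 6 of the 7, and in 5 after that normalization. Averaged over the class, the wildtype arrays stood at 9.16, 9.50 and 9.48 and the knockout arrays at 9.17, 9.45 and 9.54, with a median genotype difference of -0.04. The 31 genes induced mainly by type I interferon had a mean of 8.30, 8.57 and 8.47 against 8.27, 8.33 and 8.49, and a median difference of -0.11. Of these 31 genes, 26 lay below 0 and 5 above. Whether the classes differ was not tested.

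Other interferon-induced genes followed the same array order in their means. Of 62 listed, 48 were measured, and 0 passed by limma. At an unadjusted p under 0.05 there were 8, 4 higher and 4 lower, or 16.7% against 6.91% of all genes. Their median difference was -0.02. Averaged over this list, the wildtype arrays stood at 7.20, 7.47 and 7.36 and the knockout arrays at 7.28, 7.32 and 7.44. The list's medians, at 7.32, 7.58 and 7.32 against 7.3, 7.13 and 7.29, did not show that order. Wildtype replicate 1 was the lowest wildtype array in 36 of 48 genes and knockout replicate 3 the highest knockout array in 31. The members with the smallest p were Ifitm2 and Cxcl10. Ifitm2, a membrane protein that blocks viral entry, was at 6.17, 6.21 and 6.14 in wildtype and at 5.90, 5.61 and 5.79 in knockout cells (-0.41 ± 0.10, adjusted p = 0.193). Cxcl10, a ligand of the chemokine receptor Cxcr3, was at 5.0, 6.32 and 5.78 in wildtype and at 6.34, 6.65 and 6.83 in knockout cells (0.91 ± 0.27, adjusted p = 0.345). The knockout values of Cxcl10 cleared the highest wildtype value by only 0.02, and wildtype replicate 1 was again the lowest.

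**Figure D4:**
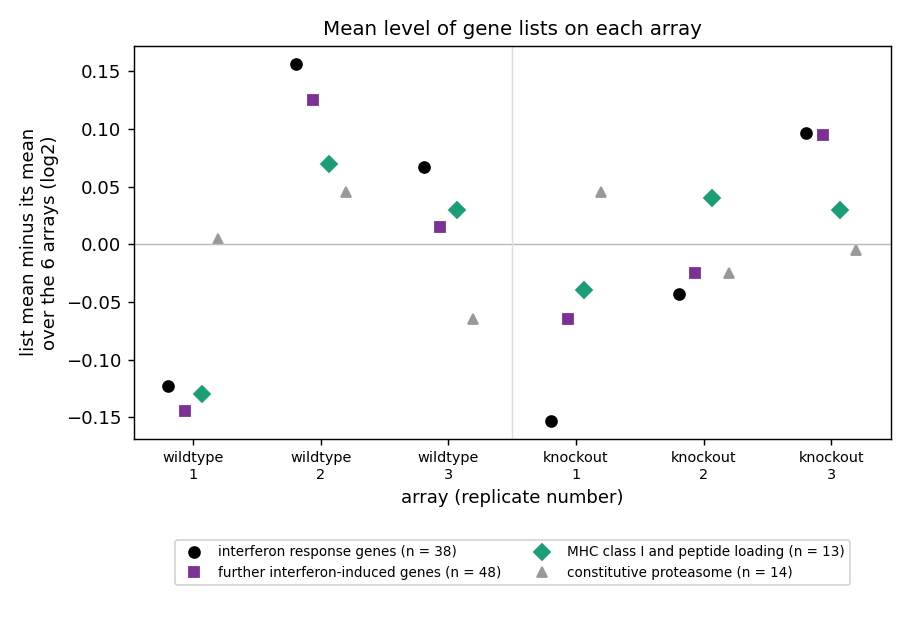
Mean log2 value of 4 gene lists on each array minus that list's mean over the 6 arrays, with n the number of genes in each list. The interferon response genes (black) and the further interferon-induced genes (purple) are low in both replicates 1 and high in wildtype replicate 2 and knockout replicate 3. After a second quantile normalization wildtype replicate 2 was the highest wildtype array in only 14 of the 38 genes. The constitutive proteasome genes (grey) are also highest in replicate 2 among wildtype arrays. They are lowest in replicate 3 among wildtype arrays and highest in replicate 1 among knockout arrays.

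Genes for MHC class I and peptide loading held 0 of 13 measured that passed by limma (0 at an unadjusted p under 0.05), with a mean of 9.39, 9.59 and 9.55 in wildtype and 9.48, 9.56 and 9.55 in knockout cells. H2-Q4, a non-classical class I gene, differed by 0.24 and Tapbp, the loading factor tapasin, by 0.13. The constitutive proteasome, which interferon does not induce, had a mean of 9.72, 9.76 and 9.65 against 9.76, 9.69 and 9.71, and 0 of 14 genes passed (0 unadjusted). Wildtype replicate 2 was the highest wildtype array in 10 of the 14, and in 2 after the second quantile normalization. Psma3 and Psma1 differed by 0.12 each.

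Receptor chains and kinases upstream of the response were measured for 9 of 10 genes, of which 0 passed by limma. Of the 9, 2 had an unadjusted p under 0.05, or 22.2% against 6.91% of all genes. Ifnar1 was at 8.66, 8.71 and 8.64 in wildtype and at 8.65, 8.67 and 8.67 in knockout cells, within 0.07 over all arrays. Ifnar2 was at 8.69, 8.99 and 8.69 against 8.54, 8.63 and 8.67 (-0.18 ± 0.11, adjusted p = 0.887). Its knockout values lay just below the wildtype values. Ifngr1 was at 8.64, 8.89 and 8.97 in wildtype and at 9.10, 9.16 and 9.27 in knockout cells, all above the wildtype values (0.34 ± 0.11, adjusted p = 0.436), and Ifngr2, the signalling chain, differed by -0.01. Tyk2 was at 6.75, 7.17 and 7.06 against 7.35, 7.36 and 7.18, also without overlap (0.30 ± 0.12, adjusted p = 0.638).

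Of the interferon genes themselves 11 were measured, and 0 passed by limma (0 unadjusted). But 7 of the 11 had a mean at most 4.94, the median of all values, so these values say little about interferon production. Ifnb1 was at 3.72, 3.12 and 3.21 in wildtype and at 3.17, 2.98 and 3.00 in knockout cells, and Ifna9 differed by -0.22. Among 10 measured negative regulators 0 passed and 1 had an unadjusted p under 0.05. That was Socs1, an inhibitor of the Jak kinases, at 7.02, 7.36 and 7.30 against 7.35, 7.48 and 7.71 (0.29 ± 0.13, adjusted p = 0.720), and next in the list came Usp18. Of 15 measured adaptors and upstream factors 0 passed, 3 had an unadjusted p under 0.05, and all 3 of these lay below 0. Trim25, the ubiquitin ligase that helps RIG-I signal, was at 9.04, 9.09 and 9.01 in wildtype and at 8.72, 8.84 and 8.82 in knockout cells, without overlap (-0.25 ± 0.09, adjusted p = 0.538), and Irf8 differed by -0.31.

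Maturation genes were measured because interferon response genes are known to come on as single-positive thymocytes mature. In the mature list 1 of 9 genes was called, Dapl1, which fell by 1.92 (adjusted p = 0.0128). The list's median difference was -0.15, and Il7r differed by 0.49 (adjusted p = 0.0706). In the semi-mature list 2 of 10 were called. The chemokine receptor Ccr4 rose by 1.65 (adjusted p = 8.07e-05) and the nuclear receptor Nr4a3 fell by 0.60 (adjusted p = 0.0209). Averaged over the semi-mature list, the wildtype arrays stood at 8.43, 8.70 and 8.49 and the knockout arrays at 8.55, 8.81 and 9.01. In these means both replicates 1 were the lowest of their genotype, but the list's medians, at 9.06, 9.17 and 8.82 against 8.92, 8.86 and 8.90, did not show that order. Rag1 and Rag2, also double-positive markers, are in the list and were lowest in both replicates 1. Averaged over the mature list, the wildtype arrays stood at 9.43, 9.67 and 9.49 and the knockout arrays at 9.28, 9.31 and 9.28. The part of maturity in the array order was not tested.

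Markers of other cells also moved over the arrays. RNA of a mixed sort cannot tell fewer cells of a type from less RNA per cell. Defining genes of CD4 single-positive T cells had a mean of 10.71 to 10.91 on the 6 arrays, with 0 of 8 called (0 unadjusted, against 6.91% of all genes). Thy1 and Cd5 had the smallest p, at -0.45 and -0.05. Thy1 was at 11.61, 11.58 and 11.53 in wildtype and at 10.45, 11.40 and 11.54 in knockout cells, so it was low in knockout replicate 1. All 7 measured double-positive thymocyte markers lay above 0 in the knockout, with 0 called (3 unadjusted, 42.9%). Averaged over these markers, the wildtype arrays stood at 6.30, 6.64 and 6.72 and the knockout arrays at 6.52, 7.11 and 7.79. Both replicates 1 were the lowest of their genotype and knockout replicate 3 the highest, as for the interferon response genes, but among wildtype arrays replicate 3 was the highest. The smallest p were those of Arpp21 (0.95) and Rag1 (1.27). All 8 regulatory T cell markers lay below 0 and 4 fell past the test (Foxp3, Ikzf2, Lrrc32 and Il2ra). Their mean was 7.83, 8.52 and 8.59 against 7.12, 6.93 and 7.05, lowest in replicate 1 among the wildtype arrays.

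Of 9 macrophage markers Lyz2 rose (1.39, adjusted p = 0.0256) and 7 lay above 0, with a mean of 4.40 to 4.62 in wildtype and of 4.66 to 5.11 in knockout cells. That mean was highest in knockout replicate 1, where the interferon response genes were lowest. Plasmacytoid dendritic cells, a strong source of type I interferon, had markers at a mean of 6.67 to 6.71 in wildtype and 6.70 to 6.79 in knockout cells. Of these 8 markers 0 were called (4 unadjusted), with the smallest p for Ccr9 (0.38) and Irf8 (-0.31). Ccr9, at 10.16 to 10.77, is also in the semi-mature thymocyte list, so its values and the mean cannot be assigned to plasmacytoid cells. Siglech (4.42 to 4.86) and Spib (4.15 to 4.78) were the 2 dim markers of the list. Conventional dendritic cell, B cell and thymic epithelial markers had 0 called of 10, 5 and 7 (0 unadjusted in each), with Itgax at 0.31, Clec9a at 0.12, Cd79a at 0.30, Cd79b at 0.08, Cldn4 at -0.16 and Epcam at -0.11. Natural killer and NKT markers had 0 of 8 called (3 unadjusted, 37.5%), with Eomes at -0.70 and Il2rb at -0.76. No value of the arrays is a true 0, so absence of a marker cannot be read from them. What part these cells have in the interferon response values was not tested.

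The targeted gene followed the labels. Bach2 was at 7.89, 8.20 and 8.05 in wildtype and at 6.50, 6.42 and 6.52 in knockout arrays, and Ptprc, whose allele was used for sorting, differed by 0.03. Array medians lay between 4.93 and 4.97, and arrays correlated with Pearson's r of 0.981 to 0.991 across probe sets, given as a description. The upper quartile was 6.90 for wildtype replicate 1 and 7.06 for wildtype replicate 2, against 6.91 to 6.99 on the other arrays. Arrays carry no read depth, and their number limits the precision.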

How the data were processed

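Total RNA of sorted thymocytes was amplified, labelled with biotin and hybridised, per the labels' protocols. The authors deposited 1 value per probe set and array, from 1.095 to 13.177, read here as log2 from that range; RMA and Partek are named in the submitters' processing notes, the log base is not stated, and no genome build is given in the sources used here. Of 35556 probe sets, 21789 had 1 symbol in the platform annotation, 1621 several and 12146 none listed. Each gene took its single-symbol probe set with the highest mean, giving 19938 genes (999 had more than 1). Genotype differences came from limma 3.58.1 in R 4.3.3 (lmFit and eBayes, all 6 arrays, genotype alone), adjusted by Benjamini-Hochberg over all genes at 0.05, after the code was tested on simulated data. Intervals are limma's 95% intervals. Gene order came from the RefSeq table of GRCm38.p6; figures used matplotlib 3.10.9 in Python 3.11.15.

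The members, lists and tests were chosen with earlier results of these data known. Genes were named where the unadjusted p was under 0.05, the groups did not overlap, the difference or range was the largest of its role, or the gene lay within 150 tested genes of Bach2 or Ptprc. Genes of other lists were named where called, otherwise the 2 with the smallest p, with the receptor chains, Bach2 and Ptprc always given. An item withheld from this text is not reported here. Alternatives were other priors, no moderation, no dim genes (mean at most 4.94), arrays centred on their medians, quantile normalization applied again, weighted arrays, probe sets averaged per gene or all kept, the replicate number as a block and leaving out each array.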

Additional observations from a re-analysis of the deposited data

How the results depend on the processing

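Under all 16 alternatives 0 of the 38 genes were called higher and 0 lower; the lowest adjusted p came nearest the threshold with a prior that follows the intensity trend (Samhd1, 0.0511) and was 0.214 to 0.687 under the others. The median difference of the 38 genes was -0.18 to -0.03 in the fits that left out an array and -0.10 to -0.07 otherwise. Genes called over all 9 pathway lists numbered 3 (all of them maturation genes), 6 with the intensity trend, 0 without moderation, 1 with all probe sets in the fit, and 1 to 4 leaving out an array. Of the 16 genes chosen for naming by rule, Stat2 (-0.15 to 0.05) and Ifi35 (-0.24 to 0.00) changed sign when an array was left out, and the other 14 kept theirs in every fit. Over all 38 genes 11 changed sign in some fit, and the number below 0 was 25 to 32. The correlation of deviations was 0.213, 0.113 and -0.0654 between same-numbered arrays and -0.257 to 0.172 between arrays of different number. With 3 arrays per group these values cannot settle whether replicate numbers pair the samples. With the replicate block 134 genes were called against 113, with 0 of the 38 among them. At an unadjusted p under 0.05 the block fit had 9 of the 38 against 6, and 7.55% of all genes against 6.91%. Over all genes 178 were called with the intensity trend, 1 without moderation, 22 with all probe sets, and 47 to 118 leaving out an array. The causes of these shifts were not tested.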
